A study of Rattus norvegicus with 9 samples.

Results

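Small hepatocyte-like progenitor cell (SHPC) clusters were compared with the hepatocytes lying beside them in the same kind of regrowing rat liver. The comparison uses 6 of the 9 arrays of the study, 3 of SHPC clusters and 3 of neighbouring hepatocytes, chosen by their titles and cell type labels. The other 3 arrays, of SHPC clusters in livers given Thy1+ cells, entered the model only to help estimate the spread between arrays. Both groups came from female F344 rats that had received 2 intraperitoneal injections of retrorsine, 30 mg/kg each and 2 weeks apart, with partial hepatectomy 4 weeks after the last injection. The labels describe the treated livers as DPPIV-, and neither group had a transplantation. Clusters and hepatocytes were cut by ultraviolet laser from 7 µm frozen sections stained with hematoxylin, under the microscope. The description label of the 3 hepatocyte arrays names SHPCs with transplantation, whereas their cell type label and titles mark them as control hepatocytes without transplantation, and the latter were followed. The sources used here do not give the time between hepatectomy and sampling, the age of the rats or the number of animals. Arrays of a group may therefore be technical repeats or share an animal, in which case p-values measure only the spread between arrays and are too small.

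Retrorsine is a pyrrolizidine alkaloid that hepatocytes turn into a reactive pyrrole, which crosslinks DNA and blocks cell division for a long time. When part of such a liver is removed, most hepatocytes enlarge without dividing, and clusters of small hepatocyte-like cells expand and refill the organ. Hepatocytes also differ along the lobule: those near the portal tract carry out gluconeogenesis, urea synthesis and amino acid breakdown, while those around the central vein, under Wnt signalling, take up glutamate and metabolise drugs.

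All levels below are log2 of an RMA intensity, listed in the order of arrays 1, 2 and 3 of each group. A change is the SHPC mean minus the hepatocyte mean on that scale, ± limma's standard error. Unless another fit is named, the adjusted p is limma's over all 15793 genes tested, from a model of 9 arrays. The 3 arrays of the transplanted group varied less around their group mean (mean absolute deviation 0.093 to 0.099) than the 6 compared (0.143 to 0.300). Sharing the spread over all 9 can therefore make the p-values of that model too small. After subtraction of group means, arrays with the same number correlated at 0.526, 0.705 and 0.341 over genes. SHPC array 3, however, correlated more with hepatocyte array 1 (0.480) than with its own number. A paired fit of the 6 arrays, with the number as a block, is given beside a result where it changes the call. The sources used here do not say whether arrays of the same number share an animal. The pairing therefore rests on correlations in these same data, and calls of the paired fit depend on it. Array 2 of both groups stood apart from the other 7: its median intensity was 24.1 for SHPC clusters and 23.0 for hepatocytes against 19.6 to 20.6 elsewhere. Each result was therefore also computed without SHPC array 2 and hepatocyte array 2. That fit keeps the 3 arrays of the transplanted group, so its p-values can be too small as well.

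At an adjusted p under 0.05, 10 genes (0.0633%) passed, 5 higher and 5 lower in SHPC clusters (0.0317% each). The paired fit called 76 genes (0.481%), 48 higher (0.304%) and 28 lower (0.177%), and included all 10. Without arrays 2, 48 genes passed (0.304%), 38 higher (0.241%) and 10 lower (0.0633%), among them 8 of the 10. Every one of the 24 genes named first, 12 in each direction, kept its direction under all 26 alternative analyses, but the calls were less firm. The groups of these 24 did not overlap, so leaving out arrays could not turn a direction, and blocks and filters leave the change as it is. No gene passed when the 6 arrays were fitted alone without pairing, when arrays were centred on their medians, or when SHPC array 1, hepatocyte array 2 or 3, or array 2 or 3 of the transplanted group was left out. In these fits limma gave 424 to 784 genes an unadjusted p under 0.05, against 651 in the 9-array model. Without hepatocyte array 1, 2 of the 10 passed, and without array 1 of the transplanted group, 3 passed. The paired fit called 0 genes when any of its 3 pairs was left out, and with 2 pairs left it had 883 to 1177 genes at an unadjusted p under 0.05. All 76 kept their direction then, which could not be otherwise, since their 3 pairs all differed in the same direction.

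**Figure D1:**
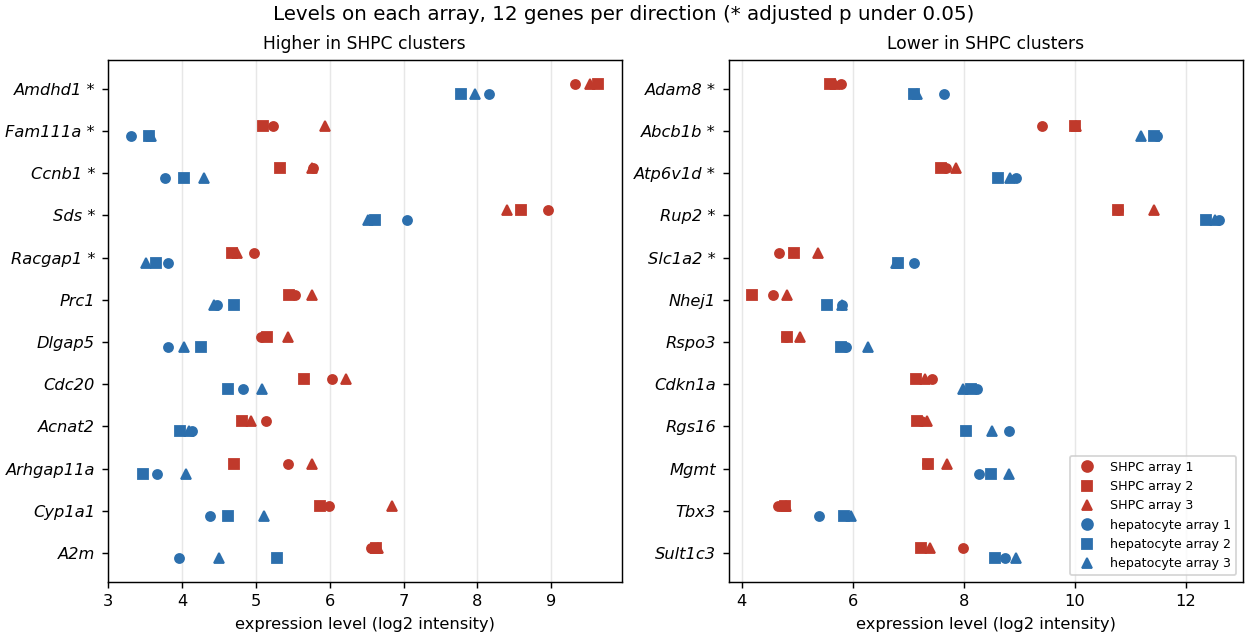
Expression level on each of the 6 arrays (log2 intensity, x axis) for 12 genes higher and 12 genes lower in SHPC clusters, ordered by p, with SHPC arrays in red, hepatocyte arrays in blue and a marker shape for each array number. Asterisks mark the 10 genes that passed an adjusted p of 0.05, and in every gene shown the 3 red points lie apart from the 3 blue ones, a property by which the other 14 were chosen.

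Genes of cell division had the largest median change of the 39 lists examined. All lists and their members were chosen with earlier results of these data known. Their ranking and their counts beside all genes are therefore descriptions, not independent support. Of 35 genes of the G2 and M phases, 32 were tested and all 32 had a change above 0, against 48.6% of all genes. Their median change was 0.94, against −0.01 over all genes. Ccnb1 and Racgap1 passed the 9-array model and 11 members passed the paired fit, all higher. Of all genes, 0.0317% passed higher in the 9-array model and 0.304% in pairs. The 3 SHPC arrays lay wholly above the 3 hepatocyte arrays for 24 members, where 2.72% of all genes did so, and 29 members were higher in all 3 numbered pairs, against 12.3% of all genes. The median difference was 1.17 in pair 1, 0.60 in pair 2 and 1.24 in pair 3, so that the pair of arrays 2 showed the smallest shift. Over the 26 alternatives the median stayed between 0.58, after 16 was added to each intensity before taking logs, and 1.20, without SHPC array 2.

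Ccnb1 encodes cyclin B1, the partner of Cdk1 at the entry into mitosis. Its level was 5.77, 5.32 and 5.76 on the SHPC arrays and 3.77, 4.03 and 4.30 on the hepatocyte arrays. The lowest SHPC array was 1.02 above the highest hepatocyte array, and the change was 1.59 ± 0.18 (adjusted p = 0.0249). Cdk1 itself was at 5.84, 4.78 and 6.38 on the SHPC arrays and 4.28, 4.15 and 4.98 on the hepatocyte arrays, with SHPC array 2 inside the hepatocyte range. Its change of 1.19 ± 0.36 passed only the paired fit (adjusted p = 0.684, paired 0.0499). Mki67, the gene of the proliferation antigen Ki-67, was at 7.78, 6.77 and 8.28 on the SHPC arrays and 5.42, 4.94 and 6.08 on the hepatocyte arrays. Its change was the largest of the list, 2.13 ± 0.38, and it too passed in pairs but not in the 9-array model (paired adjusted p = 0.00417 against 0.13). Top2a, the topoisomerase that untangles replicated DNA, was at 6.19, 5.52 and 7.03 on the SHPC arrays and 4.06, 4.13 and 5.15 on the hepatocyte arrays, again without overlap (change 1.80 ± 0.38, adjusted p = 0.296, paired 0.0142).

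Several of these genes act in the last step, cytokinesis. Racgap1 is a part of the centralspindlin complex with Kif23, and Prc1 bundles the microtubules between the separating chromosomes. Racgap1 was at 4.97, 4.67 and 4.74 on the SHPC arrays and 3.80, 3.64 and 3.51 on the hepatocyte arrays (change 1.14 ± 0.15, adjusted p = 0.0318). Prc1 was at 5.53, 5.45 and 5.76 on the SHPC arrays and 4.47, 4.71 and 4.44 on the hepatocyte arrays (change 1.04 ± 0.15, adjusted p = 0.0537, paired 0.0342). The groups did not overlap for either gene. Kif23 had a smaller change of 0.44 ± 0.16 that passed neither fit (adjusted p = 0.886, paired 0.45). Ect2, the exchange factor that centralspindlin recruits, changed by 1.49 ± 0.32 and passed only without arrays 2 (adjusted p = 0.289, paired 0.0838, without arrays 2 0.0327). Cdc20, which directs the destruction of cyclin B at anaphase, was at 6.03, 5.64 and 6.22 on the SHPC arrays and 4.82, 4.63 and 5.08 on the hepatocyte arrays (change 1.12 ± 0.18, adjusted p = 0.0977, paired 0.0151). Dlgap5, a spindle protein, was at 5.07, 5.15 and 5.43 on the SHPC arrays and 3.80, 4.25 and 4.03 on the hepatocyte arrays (change 1.19 ± 0.17, adjusted p = 0.0537, paired 0.0172). The kinetochore gene Nuf2 and the spindle genes Tpx2 and Nusap1 also passed in pairs only, with changes of 1.60 ± 0.34, 1.14 ± 0.28 and 1.15 ± 0.23.

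The promoters of Ccnb1, Prc1, Dlgap5 and Cdc20 are shown because these are the members with the smallest p that have one in the RefSeq table of assembly GRCr8. Each is the 250 bases before the gene's start, read 5′ to 3′ on the gene's strand. Capitals mark CCAAT, the box bound by NF-Y, and TTTGAA or TTCGAA, the cell cycle homology region bound by repressor and activator complexes of mitotic genes, or the reverse complement of any of them. Ccnb1 lies at chr2:33655226-33655475 on the minus strand, Prc1 at chr1:143659231-143659480 on the plus strand, Dlgap5 at chr15:23144177-23144426 and Cdc20 at chr5:137255800-137256049, both on the minus strand.
Ccnb1: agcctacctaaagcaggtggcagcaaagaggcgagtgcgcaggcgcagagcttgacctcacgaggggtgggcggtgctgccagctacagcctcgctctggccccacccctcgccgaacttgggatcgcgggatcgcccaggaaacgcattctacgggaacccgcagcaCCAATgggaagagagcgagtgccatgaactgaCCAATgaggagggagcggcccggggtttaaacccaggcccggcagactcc
Prc1: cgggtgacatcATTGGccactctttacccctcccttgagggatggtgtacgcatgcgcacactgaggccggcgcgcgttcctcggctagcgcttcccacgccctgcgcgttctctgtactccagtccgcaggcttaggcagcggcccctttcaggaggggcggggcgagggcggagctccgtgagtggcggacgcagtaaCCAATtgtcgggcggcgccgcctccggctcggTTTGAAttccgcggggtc
Dlgap5: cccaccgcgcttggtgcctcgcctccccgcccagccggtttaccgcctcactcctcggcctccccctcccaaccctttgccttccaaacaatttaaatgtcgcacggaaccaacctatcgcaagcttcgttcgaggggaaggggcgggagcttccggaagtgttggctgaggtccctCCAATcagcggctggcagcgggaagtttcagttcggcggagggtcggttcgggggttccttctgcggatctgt
Cdc20: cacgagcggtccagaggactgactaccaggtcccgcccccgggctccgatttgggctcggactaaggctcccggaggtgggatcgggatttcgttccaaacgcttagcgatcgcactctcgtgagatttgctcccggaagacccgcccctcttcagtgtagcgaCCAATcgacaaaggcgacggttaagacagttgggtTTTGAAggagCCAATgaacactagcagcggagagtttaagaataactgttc
Positions are those of a motif's leftmost base, with −1 the last base before the start. In Ccnb1 CCAAT begins at −82 and −50, and in Dlgap5 at −73. Prc1 has a reverse CCAAT at −239 and a forward one at −50, with TTTGAA at −18. Cdc20 has CCAAT at −86 and −41, with TTTGAA at −51, and its TTTGAA and nearer CCAAT do not overlap. Of the 27 tested members with a promoter in that table, 77.8% held CCAAT on either strand between 250 bases before and 50 after the start, against 37.7% of all 27457 promoters. TTTGAA or TTCGAA was found in 74.1% of them against 19.5%, and both kinds of motif in 59.3% against 7.83%. These matches describe the genes of the list and were not used to choose them.

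The S phase genes differed less. Of 27 tested, 25 had a change above 0, with a median of 0.44, none passed the 9-array model and 2 passed in pairs (0.304% of all genes did so in this direction). Rrm2, a subunit of the enzyme that makes deoxynucleotides, was at 6.76, 5.18 and 7.08 on the SHPC arrays and 4.74, 4.10 and 5.46 on the hepatocyte arrays, with SHPC array 2 inside the hepatocyte range (change 1.57 ± 0.46, adjusted p = 0.659, paired 0.0156). Prim1, the DNA primase, was at 6.43, 5.07 and 6.05 on the SHPC arrays and 4.86, 4.24 and 5.01 on the hepatocyte arrays, without overlap (change 1.14 ± 0.32, adjusted p = 0.575, paired 0.0342). The replicative helicase genes Mcm2 and Mcm5 lay apart as well but passed only without arrays 2 (changes 0.68 ± 0.16 and 0.84 ± 0.21, adjusted p = 0.411 and 0.455, and 0.0398 and 0.0372 without arrays 2). Mcm5 was at 5.006 on each of the 3 arrays of the transplanted group, which that fit keeps. Its pass thus rests partly on equal values outside the comparison. Of 22 tested cyclins and regulators of G1, none passed either fit and the median was 0.04, or 0.12 without SHPC array 2. Among them Ccnd1, cyclin D1, was at 7.82, 7.71 and 7.94 on the SHPC arrays and 8.82, 8.33 and 8.38 on the hepatocyte arrays, lower on every SHPC array (change −0.69 ± 0.20, adjusted p = 0.651, paired 0.155). Whether cyclin D1 differed from the mitotic cyclins was not tested.

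Division genes outside the list were among the 48 higher paired calls, and these were picked out after their values were seen. They include Sgo2, which guards sister chromatid cohesion, Cenpq and Ska3 of the kinetochore, the condensin genes Ncapg and Smc4, and the mitotic kinase Pbk, with changes from 0.85 for Ska3 to 1.33 for Ncapg. Sgo2 was below the filter's intensity on all 3 hepatocyte arrays, Cenpq on 2 of them and Pbk on 1. Sgo2 thus passed the filter only through arrays of SHPC clusters, and these 3 changes are measured against values near background. Fam111a, a protease active at replication forks, passed the 9-array model at 5.23, 5.10 and 5.93 on the SHPC arrays and 3.31, 3.54 and 3.58 on the hepatocyte arrays. Its change was 1.95 ± 0.22 (adjusted p = 0.0249) and the groups were 1.52 apart.

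**Figure D2:**
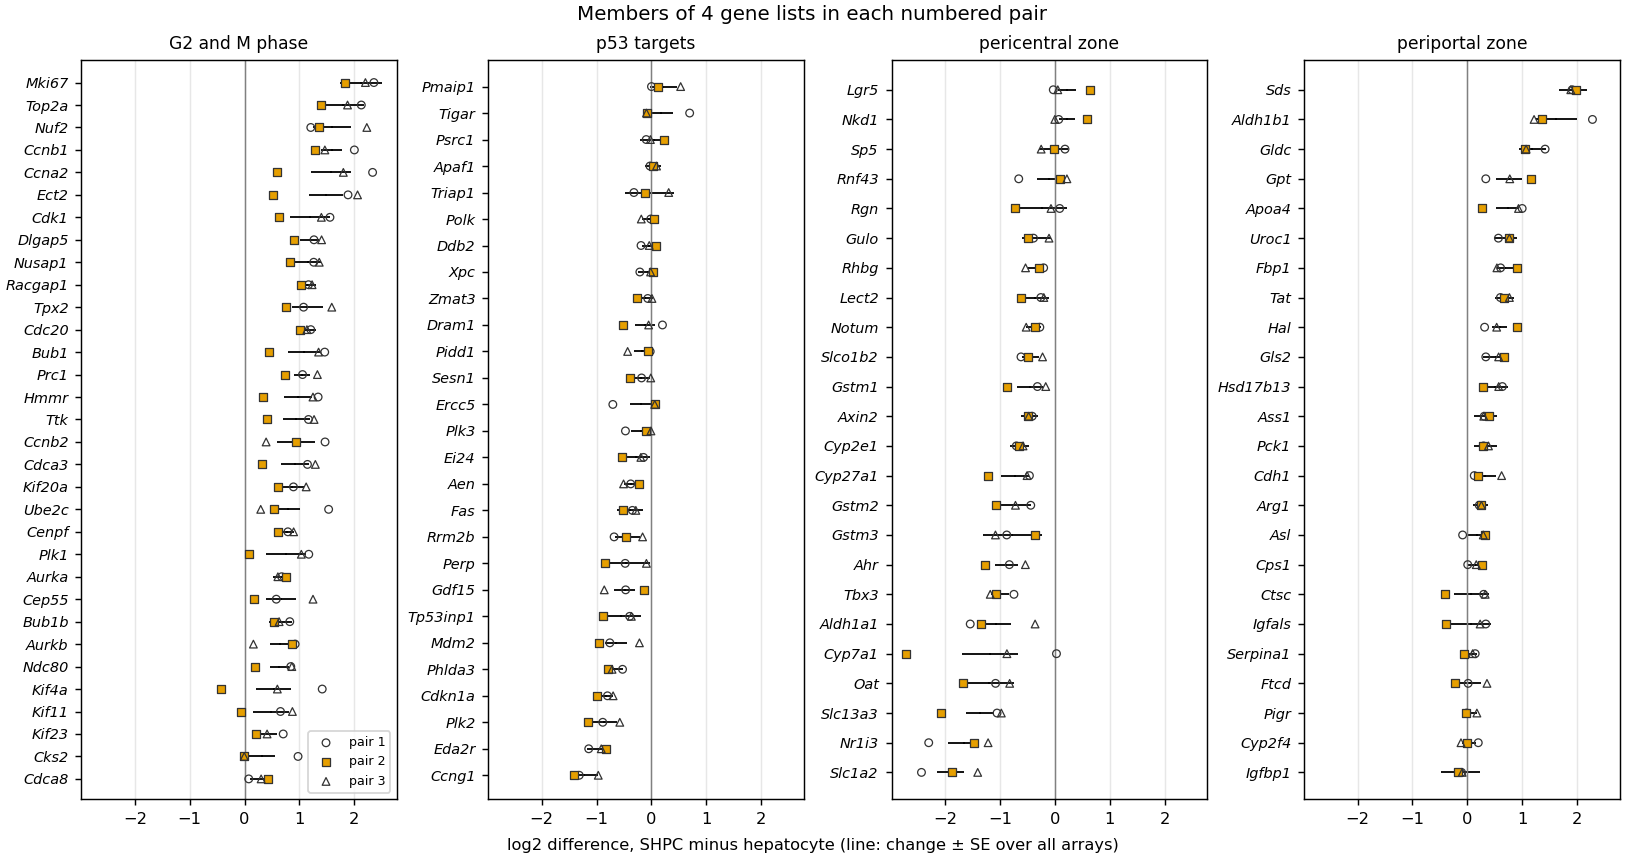
Log2 difference between SHPC and hepatocyte arrays (x axis) for every tested member of 4 gene lists, with open circles, filled squares and open triangles for the numbered pairs 1, 2 and 3, and a horizontal line for the change ± SE of the 9-array model. All 32 members of the G2 and M phase list lie above 0, as do 23 of 24 periportal members, against 4 of 27 p53 targets and 2 of 24 pericentral members.

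Targets of the transcription factor p53 were mostly lower in SHPC clusters. Of 27 tested, 23 had a change below 0 and the median was −0.20. The 3 SHPC arrays lay wholly below the hepatocyte arrays for 8 of them, where 2.49% of all genes did so, and 16 were lower in all 3 pairs, against 13.4% of all genes. None passed the 9-array model and 2, Ccng1 and Eda2r, passed in pairs (0.177% of all genes did so in this direction). The list's median was −0.35, −0.27 and −0.16 in pairs 1 to 3, and it moved to −0.38 without hepatocyte array 2.

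Ccng1, cyclin G1, was at 7.88, 7.16 and 8.16 on the SHPC arrays and 9.20, 8.58 and 9.13 on the hepatocyte arrays. Each SHPC array was lower than any hepatocyte array, and the change was −1.23 ± 0.26 (adjusted p = 0.289, paired 0.0151). Eda2r, a receptor of the TNF family, was at 4.80, 4.70 and 5.28 on the SHPC arrays and 5.94, 5.53 and 6.20 on the hepatocyte arrays, also without overlap (change −0.96 ± 0.21, adjusted p = 0.354, paired 0.0278). Cdkn1a, which encodes the cyclin-dependent kinase inhibitor p21, was at 7.43, 7.13 and 7.29 on the SHPC arrays and 8.23, 8.12 and 7.99 on the hepatocyte arrays. Its groups were 0.56 apart, yet it passed neither fit (change −0.83 ± 0.13, adjusted p = 0.102, paired 0.0513). Mdm2, which degrades p53, Phlda3, an Akt inhibitor, the kinase Plk2 and Gdf15, a stress hormone, had changes of −0.64 ± 0.20, −0.68 ± 0.16, −0.87 ± 0.24 and −0.49 ± 0.19, apart in every case and past the threshold in none (paired adjusted p = 0.248, 0.101, 0.0695 and 0.476). Of the list's genes of apoptosis, Fas, Perp, Pidd1, Aen, Ei24 and Triap1 had changes from −0.47 to −0.04, and Pmaip1 and Apaf1 had changes of 0.22 ± 0.24 and 0.03 ± 0.15, and none passed either fit.

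Repair of crosslinks and the replication checkpoint showed no gene past either fit. Of 31 members tested, 26 had a change above 0 with a median of 0.13, and Brca1 and the Fanconi genes Fancd2 and Fanci had changes of 0.54 ± 0.14, 0.49 ± 0.18 and 0.46 ± 0.17. The list's median was 0.19 without SHPC array 2. Of genes outside the list that act on damaged DNA, Nhej1 and Mgmt were named by their p, and both were lower. Nhej1, the end-joining factor XLF, was at 4.56, 4.18 and 4.82 on the SHPC arrays and 5.81, 5.52 and 5.81 on the hepatocyte arrays, with the groups apart (change −1.19 ± 0.17, adjusted p = 0.0537, paired 0.0151). Mgmt, which removes alkyl groups from guanine, was at 7.33, 7.35 and 7.69 on the SHPC arrays and 8.26, 8.49 and 8.80 on the hepatocyte arrays, also apart (change −1.06 ± 0.18, adjusted p = 0.114, paired 0.0171). Hltf, a DNA damage tolerance gene picked out after its values were seen, was higher (change 1.02 ± 0.35, adjusted p = 0.854, paired 0.02).

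Most genes of the pericentral zone had lower values in SHPC clusters. Of 24 tested, 22 had a change below 0, 11 had SHPC arrays wholly below the hepatocyte arrays and 18 were lower in all 3 pairs. Of all genes, 2.49% lay wholly below, 13.4% were lower in all 3 pairs, 0.177% passed lower in pairs and 0.0317% in the 9-array model. The median was −0.55, with −0.45, −0.69 and −0.51 in pairs 1 to 3. Slc1a2 passed the 9-array model, and Slc1a2, Nr1i3, Slc13a3, Oat and Tbx3 passed in pairs. None of the 24 passed without arrays 2. Glul and Cyp1a2, further genes of this zone, were not analysed here.

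Slc1a2 encodes a glutamate transporter found in hepatocytes around the central vein. It was at 4.67, 4.94 and 5.37 on the SHPC arrays and 7.10, 6.82 and 6.78 on the hepatocyte arrays, a gap of 1.40 between the highest SHPC and the lowest hepatocyte array (change −1.90 ± 0.25, adjusted p = 0.0314, 0.0703 without arrays 2). Tbx3, a transcription factor of pericentral cells, was at 4.65, 4.77 and 4.79 on the SHPC arrays and 5.39, 5.84 and 5.97 on the hepatocyte arrays, with no overlap (change −0.995 ± 0.17, adjusted p = 0.114, paired 0.0304). Oat, ornithine aminotransferase, which feeds glutamate synthesis, was at 8.38, 6.83 and 8.61 on the SHPC arrays and 9.46, 8.50 and 9.43 on the hepatocyte arrays. SHPC array 3 exceeded hepatocyte array 2, but each SHPC array was below its own numbered partner (change −1.19 ± 0.45, adjusted p = 1, paired 0.0385). Slc13a3, a dicarboxylate transporter, was at 6.72, 6.33 and 6.80 on the SHPC arrays and 7.77, 8.39 and 7.77 on the hepatocyte arrays (change −1.36 ± 0.25, adjusted p = 0.147, paired 0.0471).

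Direct readouts of Wnt signalling were divided. Axin2, the feedback inhibitor, was at 5.88, 5.97 and 5.91 on the SHPC arrays and 6.29, 6.46 and 6.39 on the hepatocyte arrays, lower on all SHPC arrays (change −0.46 ± 0.15, paired adjusted p = 0.296), and Notum, a Wnt-inactivating enzyme, also lay apart (change −0.38 ± 0.14, paired adjusted p = 0.481). Lgr5, the R-spondin receptor, and Rnf43, a ubiquitin ligase that R-spondins inhibit, overlapped between groups (changes 0.22 ± 0.16 and −0.11 ± 0.22). The R-spondin gene Rspo3, made by endothelium of the central vein and named here with the endothelial markers, was at 4.80, 4.81 and 5.04 on the SHPC arrays and 5.88, 5.78 and 6.27 on the hepatocyte arrays. Its change of −1.09 ± 0.16 passed in pairs (adjusted p = 0.0537, paired 0.0167). Of the 18 endothelial markers tested, Rspo3 included, 12 had a change below 0, their median was −0.14, turning to 0.07 without SHPC array 2 and −0.05 without both arrays 2, and their summed linear intensity was 1194 to 1647 on SHPC arrays and 1409 to 1852 on hepatocyte arrays. The part of captured endothelium in the Rspo3 value was not tested. Since each array measured a piece of tissue, fewer cells of a type cannot be told apart from less RNA per cell for this or any other marker.

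Most genes of the periportal zone had higher values in SHPC clusters. Of 24 tested, 23 had a change above 0, with a median of 0.33. For 10 the SHPC arrays lay wholly above the hepatocyte arrays, and 16 were higher in all 3 pairs. Of all genes, 2.72% lay wholly above, 12.3% were higher in all 3 pairs, 0.304% passed higher in pairs and 0.0317% in the 9-array model. The median was 0.51 when SHPC array 2 alone was left out and was 0.36 without both arrays 2. Sds passed the 9-array model, and Sds, Gldc and Aldh1b1 passed in pairs. Sds, serine dehydratase, turns serine into pyruvate for gluconeogenesis. It was at 8.96, 8.60 and 8.41 on the SHPC arrays and 7.05, 6.61 and 6.52 on the hepatocyte arrays, and the groups were 1.36 apart (change 1.93 ± 0.25, adjusted p = 0.0314, 0.0745 without arrays 2). Gldc, the glycine decarboxylase of the glycine cleavage system, was at 8.26, 7.27 and 7.55 on the SHPC arrays and 6.85, 6.22 and 6.48 on the hepatocyte arrays (change 1.18 ± 0.25, adjusted p = 0.272, paired 0.0156). Aldh1b1, a mitochondrial aldehyde dehydrogenase, was at 8.61, 7.07 and 7.02 on the SHPC arrays and 6.33, 5.70 and 5.81 on the hepatocyte arrays, with array 1 of SHPC clusters far above the other two (change 1.62 ± 0.37, adjusted p = 0.411, paired 0.0191). The gluconeogenic enzymes Fbp1 and Pck1 had unequal changes, 0.68 ± 0.15 with the groups apart and 0.32 ± 0.21 with overlap, and passed neither fit (paired adjusted p = 0.117 and 0.585).

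Of 41 tested genes of amino acid breakdown, 33 had a change above 0 with a median of 0.22, which was 0.04 without hepatocyte array 2 and 0.51 without SHPC array 2. Amdhd1 and Sds passed the 9-array model, Gldc and Acmsd followed in pairs, and Oat, in the pericentral list too, was the member lower in pairs. Of all genes, 0.0317% passed higher in the 9-array model, and 0.304% passed higher and 0.177% lower in pairs. Histidine breakdown runs through Hal, Uroc1, Amdhd1 and Ftcd in that order. Hal, which removes ammonia from histidine, and Uroc1, urocanase, had changes of 0.59 ± 0.14 and 0.70 ± 0.21, apart but not past the threshold (paired adjusted p = 0.254 and 0.0906). Amdhd1, imidazolonepropionase, was at 9.33, 9.64 and 9.53 on the SHPC arrays and 8.16, 7.78 and 7.96 on the hepatocyte arrays, a 2.88-fold change between groups that did not overlap (change 1.53 ± 0.15, adjusted p = 0.018, 0.0187 without arrays 2). Ftcd, the last enzyme, had a change of 0.05 ± 0.21 with full overlap. Acmsd, which diverts tryptophan breakdown away from NAD synthesis, was at 8.24, 7.21 and 8.37 on the SHPC arrays and 7.20, 6.01 and 7.28 on the hepatocyte arrays, and SHPC array 2 lay between hepatocyte arrays 1 and 3 (change 1.11 ± 0.37, adjusted p = 0.815, paired 0.0151). Tdo2, the enzyme that opens tryptophan breakdown, had a change of 0.51 ± 0.14, apart (paired adjusted p = 0.236). In the urea cycle, no gene of 9 passed and the median was 0.18, with Cps1 at 0.15 ± 0.15 and Ass1 at 0.33 ± 0.21. That median was 0.03 without hepatocyte array 2 and 0.31 without hepatocyte array 1.

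**Figure D3:**
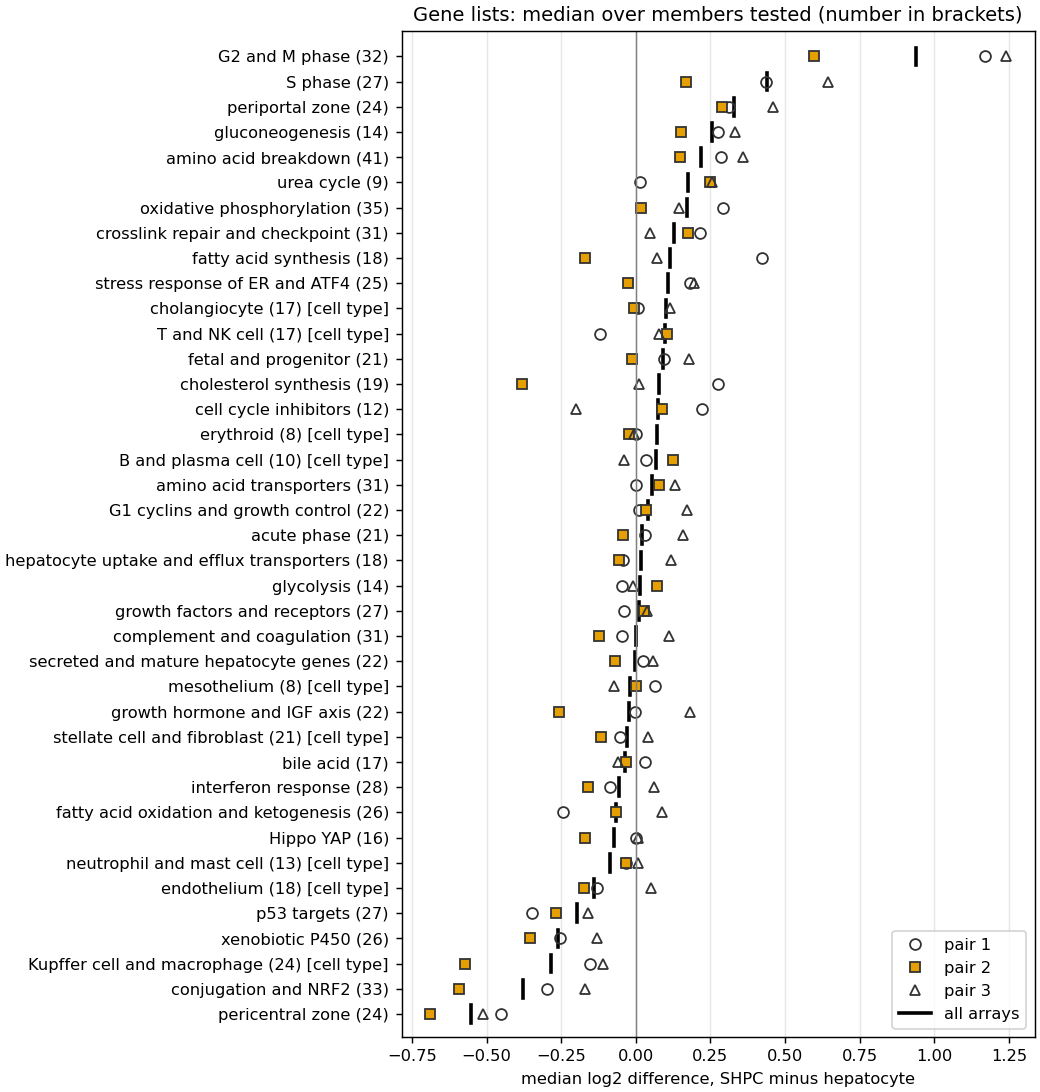
Median log2 difference between SHPC clusters and neighbouring hepatocytes (x axis) over the tested members of 30 pathway lists and 9 lists of cell type markers, with the number of members in brackets. Black bars give the change over all arrays and the open circle, filled square and open triangle give pairs 1, 2 and 3, and the G2 and M phase list (median 0.94) and the pericentral list (−0.55) stand at the ends.

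Drug metabolism genes were lower on the whole, with exceptions. Of 26 cytochrome P450 and related genes of xenobiotic metabolism, 21 had a change below 0 (median −0.26). On SHPC arrays 7 were wholly lower, against 2.49% of all genes. The median was −0.15 without SHPC array 2. None passed the 9-array model, and in pairs Cyp2b1, Cyp2b2 and Cyp3a9 passed lower while Cyp1a1, Cyp3a2 and Cyp3a18 passed higher. In pairs 0.177% of all genes passed lower and 0.304% higher. Near-identical Cyp2b and Cyp3a genes can share probes, so their values are not fully separate. Cyp2b1, the classical phenobarbital-inducible P450, was at 8.65, 7.87 and 9.34 on the SHPC arrays and 10.46, 10.32 and 10.34 on the hepatocyte arrays (change −1.75 ± 0.33, adjusted p = 0.167, paired 0.027). Cyp2b2 was at 8.30, 6.62 and 9.26 on the SHPC arrays and 10.49, 9.81 and 10.57 on the hepatocyte arrays, and its SHPC values spanned 2.64 (change −2.23 ± 0.57, paired adjusted p = 0.0222). Nr1i3 encodes the constitutive androstane receptor, which drives Cyp2b genes. It was at 5.68, 5.84 and 6.76 on the SHPC arrays and 7.97, 7.31 and 7.97 on the hepatocyte arrays, all SHPC arrays lower (change −1.66 ± 0.28, adjusted p = 0.114, paired 0.0172), whereas Nr1i2, the pregnane X receptor, had a change of 0.10 ± 0.18 with overlap.

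Cyp3a9 was at 7.68, 6.87 and 9.31 on the SHPC arrays and 10.06, 8.72 and 10.54 on the hepatocyte arrays. SHPC array 3 exceeded hepatocyte array 2, and each array was lower than its numbered partner (change −1.82 ± 0.59, paired adjusted p = 0.0151). Cyp3a18 moved the other way, at 9.59, 7.87 and 9.62 on the SHPC arrays and 8.29, 6.81 and 8.82 on the hepatocyte arrays, again overlapping but higher within each pair (change 1.06 ± 0.55, paired adjusted p = 0.026). Cyp1a1, the target of the aryl hydrocarbon receptor, was at 5.99, 5.87 and 6.84 on the SHPC arrays and 4.38, 4.61 and 5.10 on the hepatocyte arrays, with no overlap (change 1.53 ± 0.26, adjusted p = 0.114, paired 0.0142). The receptor gene itself, Ahr, was lower on every SHPC array (change −0.88 ± 0.21, paired adjusted p = 0.0906). Cyp3a2 was below the filter's intensity on 2 hepatocyte arrays, so its change is measured against values near background. Cyp2e1, the alcohol-oxidising pericentral P450, was at 11.42, 11.18 and 11.57 on the SHPC arrays and 12.12, 11.82 and 12.15 on the hepatocyte arrays, without overlap but past neither fit (change −0.64 ± 0.18, adjusted p = 0.579, paired 0.108).

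**Figure D4:**
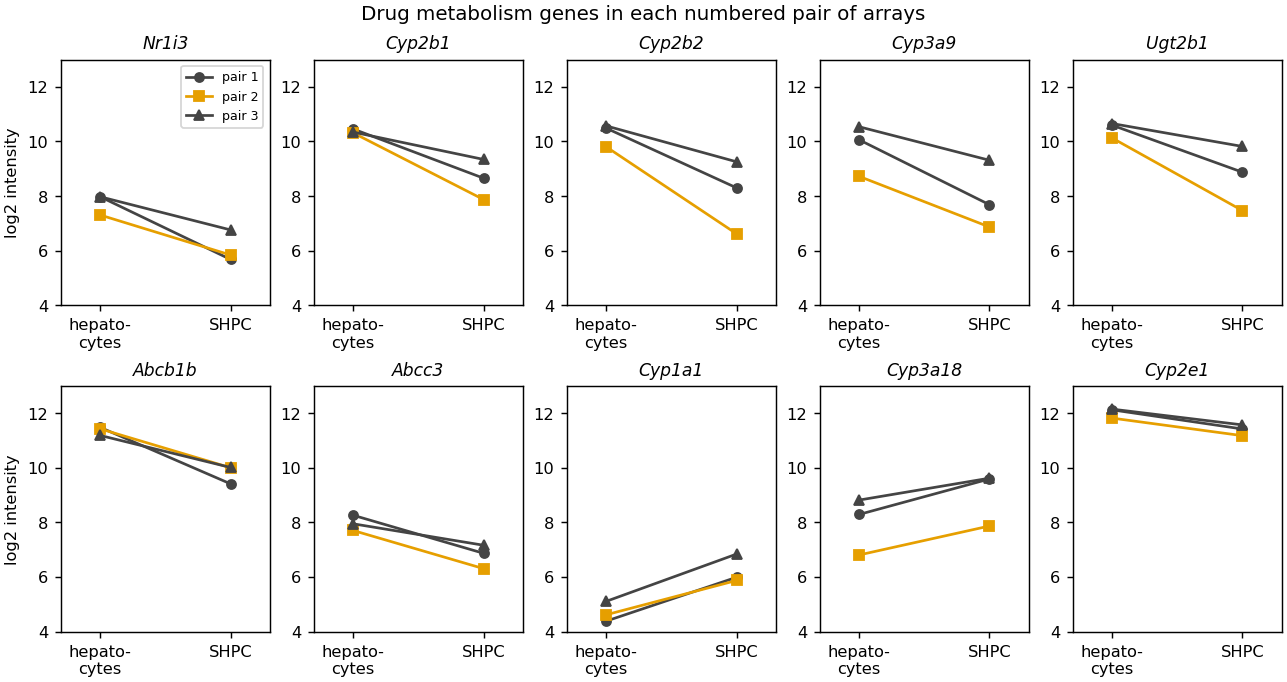
Levels (log2 intensity, y axis) of 10 genes of drug metabolism on the hepatocyte and SHPC arrays, with a line joining arrays of the same number and the pair of arrays 2 in orange. Lines slope down from hepatocytes to SHPC clusters in all 3 pairs for 8 genes and up in all 3 for Cyp1a1 and Cyp3a18.

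Abcb1b, one of the rat genes of the P-glycoprotein efflux pump, was at 9.41, 10.002 and 10.01 on the SHPC arrays and 11.48, 11.43 and 11.19 on the hepatocyte arrays. The highest SHPC array was 1.17 below the lowest hepatocyte array, and the means gave a 2.94-fold lower level (change −1.56 ± 0.18, adjusted p = 0.0249, 0.0356 without arrays 2). The related pump gene Abcb1a had a change of −0.03 ± 0.21 with overlapping groups, although probes of such similar genes may detect both. Abcc3, an export pump for glucuronides, was at 6.87, 6.31 and 7.16 on the SHPC arrays and 8.26, 7.70 and 7.95 on the hepatocyte arrays, apart as well (change −1.19 ± 0.23, adjusted p = 0.186, paired 0.024). Of 33 tested genes of conjugation and the NRF2 response, 26 had a change below 0, 9 were wholly lower on SHPC arrays and the median was −0.38. Of all genes, 2.49% were wholly lower and 0.177% passed lower in pairs. Abcc3 and the sulfotransferase Sult1c3 passed in pairs, the latter at 7.98, 7.22 and 7.39 on the SHPC arrays and 8.74, 8.57 and 8.94 on the hepatocyte arrays (change −1.22 ± 0.21, paired adjusted p = 0.0299). Ugt2b1, a glucuronosyltransferase, showed a larger change that missed the threshold, at 8.87, 7.47 and 9.82 on the SHPC arrays and 10.60, 10.13 and 10.66 on the hepatocyte arrays (change −1.74 ± 0.46, paired adjusted p = 0.0597). Leaving out SHPC array 2 brought this median to −0.09, and it was −0.24 without both arrays 2, and its difference was −0.59 in pair 2 against −0.30 and −0.17 in pairs 1 and 3.

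Alb, the albumin gene, was at 13.67, 13.55 and 13.66 on the SHPC arrays and 13.64, 13.54 and 13.65 on the hepatocyte arrays. These values lie close to the highest intensity of each array, so they show hepatocyte RNA in both groups but cannot compare its amount. Afp, the fetal albumin relative, overlapped between groups at 5.64, 4.60 and 5.60 on the SHPC arrays and 5.20, 5.22 and 5.29 on the hepatocyte arrays. Of 22 tested genes secreted by or typical of mature hepatocytes, 10 had a change above 0, the median was −0.0041, and Apoa2, an apolipoprotein of HDL, passed lower in pairs. Apoa2 was at 10.74, 10.48 and 11.04 on the SHPC arrays and 11.68, 11.84 and 11.84 on the hepatocyte arrays (change −1.03 ± 0.20, paired adjusted p = 0.0345). Among 21 fetal and progenitor genes none passed and the median was 0.09, or 0.02 without SHPC array 2. Prom1, the gene of CD133, was at 4.63, 4.46 and 4.40 on the SHPC arrays and 3.46, 3.32 and 4.22 on the hepatocyte arrays, and Krt19, a keratin of bile ducts and progenitor cells, at 4.45, 4.34 and 4.34 on the SHPC arrays and 3.97, 4.31 and 3.67 on the hepatocyte arrays. Both lay wholly higher in SHPC clusters, as did Bex4, and passed neither fit (paired adjusted p = 0.214, 0.595 and 0.172). These were the 3 members of the list that lay wholly higher, where 2.72% of all genes did so. The gap between groups was 0.18 for Prom1 and 0.04 for Krt19, below their SE of 0.25 and 0.17, and 0.29 for Bex4 (SE 0.23). Bex4 was below the filter's intensity on hepatocyte array 1. The whole list of 17 tested cholangiocyte markers had a median of 0.10, with 14 above 0, a median of −0.06 without SHPC array 2 and of 0.18 without hepatocyte array 2, and a summed linear intensity of 479 to 541 on SHPC arrays and 450 to 526 on hepatocyte arrays, and Sox9 and Epcam overlapped between groups (changes 0.04 ± 0.15 and 0.15 ± 0.28). Dpp4 was at 8.85, 7.63 and 8.89 on the SHPC arrays and 8.96, 7.88 and 8.66 on the hepatocyte arrays in these livers described as DPPIV-, and the part of the gene its probes cover is not known here. Thy1 had a change of 0.04 ± 0.11.

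Of the other cells that a laser cut can carry, Kupffer cells had the list with the median farthest from 0. Of 24 tested markers 21 had a change below 0, with a median of −0.28 that was −0.57 in pair 2 against −0.15 and −0.11 in pairs 1 and 3, and none passed either fit. The median depended on a single array: it was 0.0041 without SHPC array 2 and −0.44 without SHPC array 1. Their summed linear intensity was 2722 to 4743 on SHPC arrays and 3805 to 5331 on hepatocyte arrays. Clec4f, the defining rat Kupffer cell lectin, was at 8.20, 7.58 and 8.08 on the SHPC arrays and 8.73, 8.30 and 8.30 on the hepatocyte arrays (change −0.49 ± 0.20, paired adjusted p = 0.376), and Marco, a scavenger receptor, was slightly higher on all SHPC arrays (change 0.18 ± 0.16). The part of these cells in the genes lower in SHPC clusters was not tested. The lists of stellate cells and fibroblasts, T and NK cells, B and plasma cells, neutrophils and mast cells, erythroid cells and mesothelium had medians between −0.08 and 0.10, or −0.20 and 0.11 with single arrays left out, with 0 members past either fit.

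The remaining genes of the 9-array calls belong to none of these lists. Adam8, a cell surface metalloprotease known from leukocytes, was at 5.79, 5.59 and 5.68 on the SHPC arrays and 7.64, 7.11 and 7.15 on the hepatocyte arrays. Its 3 SHPC values spanned 0.21 and lay at least 1.32 below any hepatocyte array (change −1.61 ± 0.17, adjusted p = 0.0204, 0.0217 without arrays 2). Atp6v1d, a subunit of the proton pump that acidifies lysosomes, was at 7.67, 7.58 and 7.86 on the SHPC arrays and 8.93, 8.62 and 8.84 on the hepatocyte arrays (change −1.09 ± 0.14, adjusted p = 0.0314, 0.02 without arrays 2). Rup2, named for a rat urinary protein, was at 10.77, 10.78 and 11.42 on the SHPC arrays and 12.60, 12.37 and 12.53 on the hepatocyte arrays, with the groups 0.95 apart (change −1.51 ± 0.19, adjusted p = 0.0314, 0.0485 without arrays 2). Beyond these, A2m, the protease inhibitor alpha-2-macroglobulin, was at 6.56, 6.63 and 6.66 on the SHPC arrays and 3.96, 5.28 and 4.50 on the hepatocyte arrays, and its change of 2.03 ± 0.35 passed in pairs (paired adjusted p = 0.0151). SHPC values of A2m spanned 0.10 and those of hepatocytes 1.32. Rgs16, which shortens G protein signalling, was at 7.23, 7.15 and 7.33 on the SHPC arrays and 8.80, 8.05 and 8.51 on the hepatocyte arrays (change −1.22 ± 0.20, adjusted p = 0.114, paired 0.0209). Acnat2, an acyl-CoA amino acid N-acyltransferase, was at 5.13, 4.81 and 4.94 on the SHPC arrays and 4.14, 3.97 and 4.09 on the hepatocyte arrays (change 0.89 ± 0.14, adjusted p = 0.0977, paired 0.0335).

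Large changes outside the lists also appeared among the paired calls, and these genes were picked out after their values were seen. A1bg, a plasma glycoprotein gene, was at 9.33, 7.01 and 8.16 on the SHPC arrays and 6.06, 5.71 and 6.43 on the hepatocyte arrays (change 2.10 ± 0.49, adjusted p = 0.413, paired 0.0409). Spink1l and Spink1, trypsin inhibitor genes similar enough that probes may detect both, had changes of 1.90 ± 0.41 and 1.79 ± 0.42 and did not overlap between groups. Spink1 was below the filter's intensity on 2 hepatocyte arrays. Ptger3, a receptor for prostaglandin E2, was at 7.50, 6.67 and 7.33 on the SHPC arrays and 6.23, 4.96 and 6.38 on the hepatocyte arrays (change 1.31 ± 0.35, paired adjusted p = 0.0189). Mybl1, a transcription factor of the Myb family, was at 5.13, 5.77 and 5.37 on the SHPC arrays and 7.12, 7.27 and 6.41 on the hepatocyte arrays, lower on every SHPC array (change −1.51 ± 0.27, paired adjusted p = 0.0172). Akr1c2, an aldo-keto reductase from a family of close relatives, had a change of −1.31 ± 0.23 (paired adjusted p = 0.0151).

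Of the lists not described above, oxidative phosphorylation had small differences mostly above 0. Of 35 tested genes, 34 had a change above 0 and the median was 0.17. All 3 pairs were higher for 18 of them, against 12.3% of all genes, but no gene passed either fit and no gene had groups apart. In pair 2 its median was 0.02, and over all arrays it turned to −0.07 without hepatocyte array 2 and was 0.50 without SHPC array 2. Gluconeogenesis had a median of 0.26, with 8 of 14 above 0, and of 0.06 without hepatocyte array 2. Glycolysis, synthesis of fatty acids and of cholesterol, oxidation of fatty acids, growth hormone signalling, growth factors, Hippo YAP targets, complement, the interferon response, the ER stress response and the cell cycle inhibitors, Cdkn1a included, had medians between −0.07 and 0.12 and 0 genes past either fit. With single arrays left out, the medians of these lists ranged from −0.32 for the oxidation of fatty acids, without hepatocyte array 2, to 0.50 for their synthesis, without SHPC array 2. The medians for fatty acid and cholesterol synthesis turned to −0.13 and −0.25 without SHPC array 1. Without both arrays 2, Cdkn2c, an inhibitor of the G1 kinases, and Psat1, an enzyme of serine synthesis, passed (adjusted p = 0.0187 and 0.0268). In the bile acid list only Amacr, the racemase that prepares side chains for shortening, passed in pairs (change −0.90 ± 0.23, paired adjusted p = 0.0467), and in the acute phase list only A2m. Among 18 uptake and efflux transporters of hepatocytes and 31 amino acid transporters, the called genes were Abcb1b, Abcc3 and Slc1a2, described above, and the medians were 0.02 and 0.05. The former was −0.15 without hepatocyte array 2 and 0.15 without SHPC array 2, and the latter 0.01 without hepatocyte array 3.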

How the data were processed

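RNA levels were read on 9 Affymetrix arrays that probe whole transcripts, with Ambion's kit for labelling and RNeasy for RNA, per the labels' protocols. The deposited table holds a linear intensity for 36685 probe sets per array, made by the authors with RMA, per the submitters' processing notes, whose version and genome build the sources used here do not name. RMA's background correction and normalization between arrays tend to even out overall differences between arrays. The log2 of each intensity was taken here. The platform annotation gave 18511 probe sets 1 gene symbol and 575 several, and 17599 were unnamed. The probe set with the highest mean stood for each of 18166 genes, and 15793 exceeded the 25th percentile on at least 3 of 9 arrays. No 2 arrays held identical values throughout (0 pairs), but 337 probe sets had 1 value on every SHPC array and 319 on every hepatocyte array, which no source used here explains. Of the genes tested these were 134 and 133, and 0 of them were among the 10 calls.

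limma 3.58.1 in R 4.3.3 fitted 3 group means over 9 arrays, with eBayes and Benjamini-Hochberg adjustment at 0.05. The fit was tested on simulated data. Replicate numbers come from the array titles. After subtraction of group means, arrays of the same number correlated at 0.526, 0.705 and 0.341 over genes. Arrays of different numbers correlated between −0.606 and 0.480, and SHPC array 3 correlated more with hepatocyte array 1 (0.480) than with its own number. Since every pair of the same number exceeded 0.1, the paired fit, with the number as a block over 6 arrays, is printed where it changes a call. SHPC array 1 with hepatocyte array 3 (0.237) and SHPC array 3 with hepatocyte array 1 (0.480) also exceeded 0.1. This rule therefore does not establish that arrays of the same number are pairs. With 3 against 3 arrays, an exact permutation test of a single gene cannot give a p below 0.10, so none is given. The number of arrays limits the precision. Alternatives were other normalizations, filters, offsets, blocks, array weights, a variance trend, all probe sets and leaving out arrays. Those that leave out a numbered pair, or block the pairs within 9 arrays, were chosen after seeing the data.

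Named genes were the calls, then genes with the smallest p and groups apart up to 12 per direction, up to 3 genes of each list by p, and a few markers. Genes known by a numbered locus were left out, and other genes named as examples were chosen after their values were seen. The members and gene lists were chosen with earlier results of these data known. Promoter sequences came from RefSeq, assembly GRCr8.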

Additional observations from a re-analysis of the deposited data

How the results depend on the processing

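The 9-array model called 10 genes. Blocking on replicate number over the 6 arrays gave 76 calls (48 higher, 28 lower), as a random block 29 (15 and 14), and blocking the pairs within 9 arrays, added later, 147 (92 and 55). Without SHPC array 2 and hepatocyte array 2 there were 48 (38 and 10). The 6 arrays alone, median centring and all probe sets each gave 0 calls, with 424, 511 and 1120 at an unadjusted p under 0.05 in limma. Renewed quantile normalization gave 17 calls (7 and 10), cyclic loess 34 (19 and 15), array weights 375 (237 and 138), and an offset of 16 before the log 6 (1 and 5). Leaving out 1 array at a time gave 0 to 53, and leaving out 1 pair of the paired fit 0 in each case. Other filters and a variance trend gave 10 to 14. A turn of sign was counted only where the change of the 9-array model exceeded its SE. Among 126 named genes, 5 of 3266 values turned sign by this rule. Smaller changes that turned, such as Dpp4 from −0.04 to 0.06 without arrays 2, were not counted. Acat2 became 0.0344 without arrays 2, with and without the block, and Epb42 −0.0117 in the same settings. Leaving out single arrays gave Epb42 from −0.0078, without SHPC array 2, to 0.4729. Other values became weaker in 137 cases and stronger in 177. Of 1014 list medians, 15 moved by over 1 SD between SHPC arrays. That SD is wide where SHPC array 2 stood apart, so the count says little about such lists. For Kupffer cells it was 0.49, and the move from −0.28 to 0.0041 without SHPC array 2 was not counted. The cause of each shift was not tested. Dim genes have the least signal over background, and 3 arrays per group limit every estimate.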
